A study of Sus scrofa with 9 samples.

Results

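The genes described here are 9 transcripts used as markers of Kupffer cells, the resident macrophages of the liver: CD5L, MARCO, VSIG4, C1QA, C1QB, C1QC, CSF1R, CD68 and AIF1. They were taken by gene symbol from a table of 25918 genes measured by RNA sequencing in liver. The table numbers its genes without naming them, and symbols were read from the serial order of genes in the NCBI annotation of the pig genome, so every gene name here rests on that order. Each symbol matched 1 row, and all 9 passed the minimum mean FPKM of 0.5, as did 12584 genes in all. FPKM is the number of sequenced fragments scaled to transcript length and to library size. The livers came from 9 Wujin pigs, 3 in each of 3 groups, which entered the trial aged 35 days, adapted to the feed for 5 days and then ate the test diets for 30 days. The low-iron group received no added iron (0 mg/kg), the control group 100 mg/kg and the high-iron group 200 mg/kg, the added iron being iron glycinate. These amounts were added to a basal diet that already contained iron, so the low-iron diet was not free of it. All 3 groups were the same breed, each library was the liver of 1 separately raised pig, and no genetic modification is described for any of them. The study used both sexes, but the labels do not give the sex of each pig. EIF1AY, a gene of the Y chromosome, was listed at 0 in 1 low-iron, 1 control and 2 high-iron libraries.

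Kupffer cells line the liver sinusoids and clear particles, bacteria and aged red blood cells from portal and arterial blood. They break down the haem of engulfed red cells, store the iron or return it to plasma through ferroportin, and depend on signals through the CSF1 receptor for their survival. Several of the 9 genes are shared with other macrophages: CD68, AIF1, CSF1R and the C1q chains are found in macrophages of many tissues, whereas CD5L, VSIG4 and MARCO are closer to the resident liver cell. The comparisons made here ask whether transcripts of these cells differed between pigs fed no added, adequate or extra iron.

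The tissue was liver by its markers, since the hepatocyte transcript ALB (albumin) lay between 46230 and 74130 FPKM and TTR (transthyretin) between 1449 and 2469 FPKM over the 9 libraries, and APOA1 (the main protein of high density lipoprotein) was at or above 1014 FPKM in each. All 9 marker genes were above 0 in every library. Other genes of resident macrophages were also present, with the haemoglobin scavenger receptor CD163 at 66.2 to 109 FPKM, the phosphatidylserine receptor TIMD4 at 14.4 to 25.1 FPKM and the galactose-binding lectin CLEC4F at 9.69 to 48.0 FPKM. The study reports the total reads of each library, but FPKM give no read counts for single genes, so the reads behind each value were not available.

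CSF1R, CD68, C1QA, C1QB and VSIG4 had higher levels in each of the 3 high-iron libraries than in any of the 6 others. Between high-iron and control, 9.14% of all genes were without overlap in that direction. The fitted fold change over control was 1.51 for CSF1R, 1.46 for CD68, 1.40 for C1QA, 1.54 for C1QB and 1.53 for VSIG4, so that none reached 2-fold, and none had an adjusted p under 0.05. C1QC (1.39-fold) and AIF1 (1.24-fold) were also higher on average but overlapped, MARCO was at 1.00-fold, and CD5L was at 0.86-fold. Between low-iron and control, the fitted fold changes of the 9 genes ran from 0.74 (MARCO) to 1.23 (C1QB), and all 9 overlapped.

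On the FPKM scale, which is per transcript length, the 9 genes spanned a wide range. CD5L had the highest mean level over the 9 libraries, 286 FPKM, and ranked 188 of the 12584 genes tested. The C1q chains followed, with means of 211 FPKM for C1QC, 197 FPKM for C1QA and 184 FPKM for C1QB. CSF1R (30.1 FPKM), CD68 (26.9 FPKM), VSIG4 (23.5 FPKM) and AIF1 (15.7 FPKM) were lower, and MARCO was lowest, with a mean of 3.93 FPKM. Neighbours in this order overlapped in their library values (CD5L 249 to 335, C1QC 146 to 304, C1QA 139 to 291 and C1QB 117 to 249.5 FPKM), except for the step from C1QB to CSF1R, whose highest library was at 42.8 FPKM, and the step from AIF1, lowest at 9.64 FPKM, to MARCO, highest at 7.66 FPKM. The libraries at the extremes recurred. Control replicate 5 was the lowest of the 9 for 6 genes (C1QA, C1QB, C1QC, CSF1R, CD68 and AIF1), and high-iron replicate 2 was the highest for C1QA, C1QB, C1QC and CD68.

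The 3 C1q genes lie side by side, and the bases before their annotated starts are shown because their transcripts kept nearly the same proportions in all libraries. On Sscrofa11.1 chromosome 6, all on the plus strand, C1QA spans 80586259 to 80589213, C1QC 80592591 to 80597464 and C1QB 80601680 to 80606076. The gap is 3377 bases between C1QA and C1QC and 4215 bases between C1QC and C1QB, and the whole cluster covers 19818 bases. VSIG4 lies on chromosome X from 52175601 to 52198635 on the minus strand and CD5L on chromosome 4 from 92394535 to 92412146 on the plus strand; these are shown as the member with the lowest unadjusted p between high-iron and control and the member with the lowest fold change in that comparison. The 250 bases before each start, from the RefSeq genome of that build, are printed 5′ to 3′ with the letters GAGGAA, a core of the binding site of the macrophage factor PU.1 (gene SPI1), or their reverse complement TTCCTC in capitals. The windows are chr6:80586009-80586258, chr6:80592341-80592590 and chr6:80601430-80601679 (plus strand), chrX:52198636-52198885 (minus strand) and chr4:92394285-92394534 (plus strand).
C1QA: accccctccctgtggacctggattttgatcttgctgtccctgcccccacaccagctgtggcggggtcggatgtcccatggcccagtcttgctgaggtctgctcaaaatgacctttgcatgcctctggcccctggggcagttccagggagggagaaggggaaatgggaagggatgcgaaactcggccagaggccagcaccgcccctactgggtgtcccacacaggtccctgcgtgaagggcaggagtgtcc
C1QC: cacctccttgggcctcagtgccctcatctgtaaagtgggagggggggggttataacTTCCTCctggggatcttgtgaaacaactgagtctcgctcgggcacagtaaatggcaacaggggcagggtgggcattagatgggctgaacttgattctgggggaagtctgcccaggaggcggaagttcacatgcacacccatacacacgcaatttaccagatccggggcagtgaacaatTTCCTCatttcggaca
C1QB: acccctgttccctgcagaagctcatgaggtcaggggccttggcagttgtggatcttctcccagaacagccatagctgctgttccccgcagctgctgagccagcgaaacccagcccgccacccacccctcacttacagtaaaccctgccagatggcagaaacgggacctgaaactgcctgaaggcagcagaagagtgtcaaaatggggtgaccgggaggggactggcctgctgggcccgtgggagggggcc
VSIG4: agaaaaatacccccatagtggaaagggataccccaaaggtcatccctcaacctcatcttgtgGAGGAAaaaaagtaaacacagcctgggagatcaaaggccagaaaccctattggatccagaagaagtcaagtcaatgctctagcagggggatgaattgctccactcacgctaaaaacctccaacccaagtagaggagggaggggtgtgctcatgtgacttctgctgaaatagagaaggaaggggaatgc
CD5L: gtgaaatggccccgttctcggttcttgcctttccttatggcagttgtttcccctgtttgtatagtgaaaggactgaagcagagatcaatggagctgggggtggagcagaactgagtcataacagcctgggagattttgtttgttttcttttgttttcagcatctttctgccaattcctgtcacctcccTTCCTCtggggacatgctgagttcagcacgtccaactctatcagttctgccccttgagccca

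The motif was found in 4 of the 9 marker genes' windows, with 2 matches at C1QC and 1 each at VSIG4, CD5L and AIF1. It was in 22% of the 20650 windows of the same length before all numbered genes. C1QA and C1QB, whose levels ran with those of C1QC, held none in these 250 bases. A match is a run of letters and not a measured site, and the true start in pig liver may differ from the annotated one. This is most so for AIF1 (chromosome 7, 23711752 to 23731191, plus strand), where 1 transcript model begins far upstream and which overlaps LST1 and NCR3.

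CSF1R, CD68 and AIF1, found in macrophages of many tissues, are described first. CSF1R encodes the receptor for the growth factors CSF1 and IL34 (chromosome 2, 151102138 to 151130311, minus strand). It was at 28.1, 30.3 and 24.4 FPKM in low-iron replicates 2, 3 and 7, at 25.4, 22.5 and 26.8 FPKM in control replicates 4, 5 and 6, and at 38.1, 32.4 and 42.8 FPKM in high-iron replicates 2, 7 and 8. Each high-iron library was above all 6 others, while low-iron and control libraries overlapped. High-iron pigs averaged 37.8 ± 5.19 FPKM (SD, n = 3) against 24.9 ± 2.17 in controls, a log2 fold change of 0.59 (SE 0.17, 95% interval 0.21 to 0.98, limma with Benjamini-Hochberg adjusted p = 0.885). Against low-iron pigs (27.6 ± 2.96 FPKM) the log2 fold change was 0.45 (limma adjusted p = 0.656), and its unadjusted p rose above 0.05 when low-iron replicate 2 (0.46) or 7 (0.36) or high-iron replicate 2 (0.44) or 8 (0.35) was left out. In bulk tissue such as this, more cells of a type and more RNA per cell cannot be told apart.

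CD68, a heavily glycosylated protein of macrophage lysosomes and endosomes (chromosome 12, 52874754 to 52877256, plus strand), was at 24.2, 28.0 and 24.3 FPKM in low-iron, 25.5, 18.9 and 23.2 FPKM in control and 34.1, 30.7 and 33.2 FPKM in high-iron libraries. The high-iron values again lay above all 6 others. The log2 fold change was 0.54 against control (SE 0.17, limma adjusted p = 0.885) and 0.36 against low-iron (limma adjusted p = 0.716). AIF1, an actin-binding protein of activated macrophages, was at 11.95, 12.35 and 17.7 FPKM in low-iron, 17.0, 9.64 and 18.3 FPKM in control and 17.7, 15.8 and 20.5 FPKM in high-iron libraries. Its groups overlapped in each comparison, and the log2 fold change of 0.31 between high-iron and control had a 95% interval of -0.28 to 0.89. Of the genes that overlap its span, LST1 lies on the same strand and NCR3 on the other, and the libraries were not described as stranded. Reads from any part shared with either gene could therefore not be told apart from those of AIF1, and whether there were such reads was not tested.

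C1QA, C1QB and C1QC encode the 3 chains of C1q, the recognition unit that starts the classical complement pathway and that tissue macrophages make. C1QA was at 193, 186 and 150.1 FPKM in low-iron, 174, 139 and 204 FPKM in control and 291, 218 and 215 FPKM in high-iron libraries. C1QB was at 172, 192 and 171.5 FPKM in low-iron, 150.5, 117 and 175.5 FPKM in control and 249.5, 234 and 193 FPKM in high-iron libraries. For both genes every high-iron library was above all 6 others, although for C1QB the lowest high-iron library (192.6 FPKM) was barely above the highest low-iron library (192.0 FPKM). C1QC was at 179, 226 and 175 FPKM in low-iron, 173, 146 and 234 FPKM in control and 304, 247 and 211 FPKM in high-iron libraries, so that the groups overlapped.

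Against control, the log2 fold change in high-iron pigs was 0.62 for C1QB (SE 0.20, limma adjusted p = 0.885), 0.49 for C1QA (SE 0.21, adjusted p = 0.892) and 0.47 for C1QC (SE 0.23, adjusted p = 0.901). The value for C1QA rested on single libraries: it was 0.34 without control replicate 5 and also without high-iron replicate 2. Its unadjusted limma p was then above 0.05, as it was without low-iron replicate 2 or control replicate 4 (0.49 and 0.50). For C1QC the unadjusted p came under 0.05 without control replicate 6 (0.66) or high-iron replicate 8 (0.60). The chains kept near-even shares. C1QA made up 30.2% to 35.5%, C1QB 28.6% to 34.6% and C1QC 32.9% to 38.1% of their summed FPKM over the 9 libraries, and the ranges of the 3 groups overlapped except that the share of C1QB was 31.7% to 34.6% in low-iron and 28.6% to 30.2% in control libraries.

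Genes listed as partners of C1q include classical pathway proteins that hepatocytes make in large amounts, such as C1R, C1S, C2, C4A and C3. MASP1, MASP2, CALR, LRP1 and CD93 were also on the list. Of 13 tested rows, none had an unadjusted limma p under 0.05 in any of the 3 comparisons. The shares of all genes, in either direction, were 3.68% (low-iron and control), 5.59% (high-iron and control) and 7.15% (high-iron and low-iron), so few rows would be under it at those shares. The median log2 fold change of the list between high-iron and control was 0.03. C1R and C1S, the proteases that bind C1q, had log2 fold changes of 0.13 and 0.03, and C3, the most abundant of the list at 1584 to 3734 FPKM, was at -0.03. C4BPA was present as 2 rows.

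VSIG4, MARCO and CD5L are the more liver-resident markers, and of these only VSIG4 was without overlap between high-iron and the other groups. VSIG4 encodes a complement receptor that takes up particles coated with C3 fragments. It was at 21.98, 22.05 and 17.98 FPKM in low-iron, 18.9, 20.9 and 19.1 FPKM in control and 30.2, 31.3 and 28.7 FPKM in high-iron libraries. The 3 high-iron libraries lay close together and clear of the others, whose highest value was 22.05 FPKM. The log2 fold change was 0.61 against control (SE 0.16, 95% interval 0.26 to 0.96, limma adjusted p = 0.885) and 0.54 against low-iron (SE 0.16, 95% interval 0.19 to 0.89, adjusted p = 0.613). By unadjusted p, VSIG4 ranked 36 of 12584 genes in the first comparison and 120 in the second.

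MARCO, a scavenger receptor with a collagen-like stalk that binds bacteria and particles (chromosome 15, 24502935 to 24541286, plus strand, overlapped by a gene on the minus strand), was low and uneven. It was at 3.50, 1.69 and 3.88 FPKM in low-iron, 4.62, 6.47 and 1.91 FPKM in control and 3.44, 2.17 and 7.66 FPKM in high-iron libraries. The highest library was 4.54 times the lowest, the widest spread of the 9 genes, and the groups overlapped. The log2 fold change between high-iron and control was 0.00 with a 95% interval of -1.17 to 1.17, which leaves differences of more than 2-fold in either direction possible.

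CD5L, a secreted protein of tissue macrophages also known as AIM, was at 305, 279 and 269 FPKM in low-iron, 335, 281 and 309 FPKM in control and 256, 290.5 and 249 FPKM in high-iron libraries. Low-iron libraries lay between the other groups on average, and all 3 groups overlapped. On the deposited FPKM scale it was the only one of the 9 genes with a mean lower in high-iron than in control pigs (265 ± 22.4 against 308 ± 26.8 FPKM, SD, n = 3), with a log2 fold change of -0.22 (SE 0.17, 95% interval -0.60 to 0.16, limma adjusted p = 0.945). Across libraries its level varied least of the 9, with the highest library 1.35 times the lowest.

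**Figure D1:**
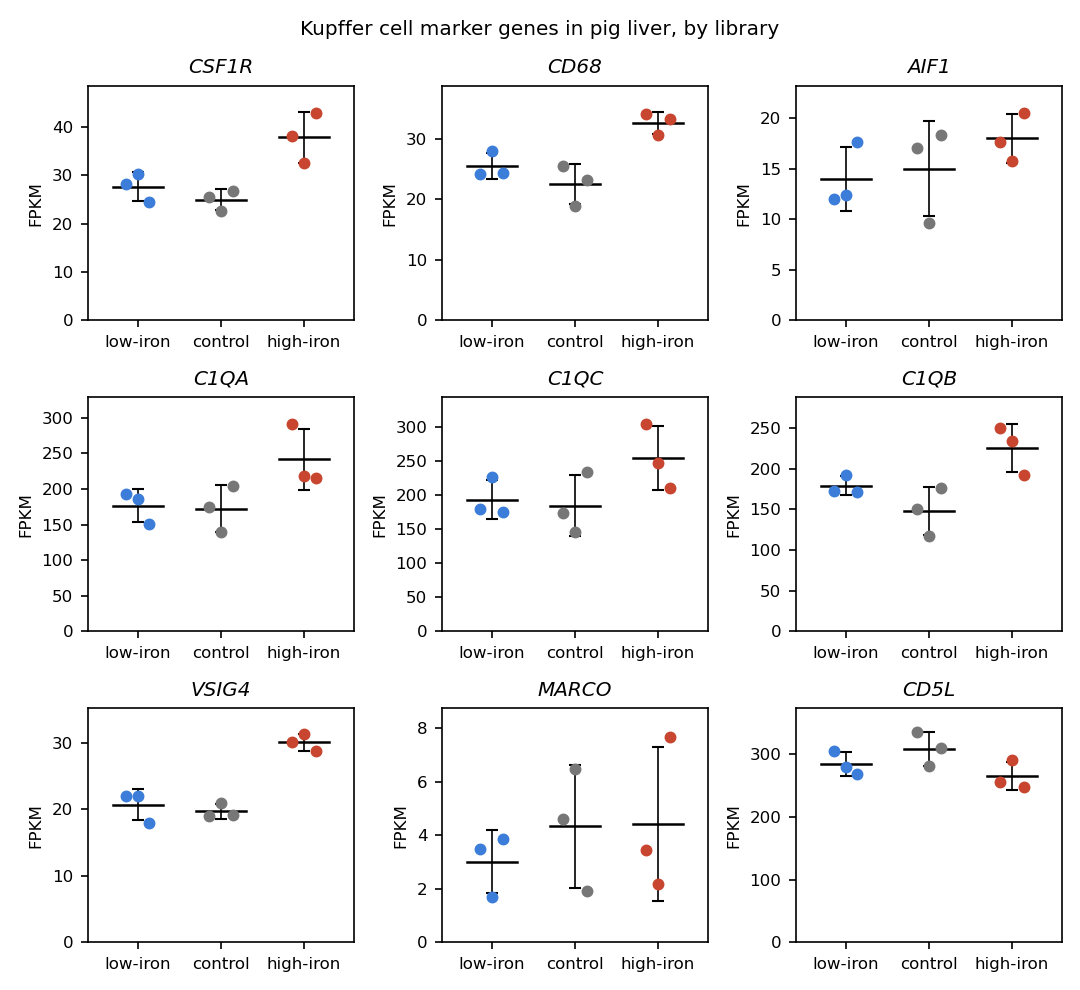
Levels of the 9 marker genes in FPKM (vertical axes, from 0) by diet group, with 1 point for each library, a bar at the group mean and whiskers of 1 SD (n = 3). The 3 high-iron points lie above the 6 others for CSF1R, CD68, C1QA, C1QB and VSIG4, while the groups overlap for C1QC, AIF1, MARCO and CD5L.

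No member reached a fold change of 2 with an unadjusted limma p under 0.05 in any comparison. The share of all 12584 genes that did was 0.882% between low-iron and control, 1.57% between high-iron and control and 1.54% between high-iron and low-iron. Between high-iron and control, 5 of 9 members (VSIG4, CSF1R, CD68, C1QB and C1QA) had an unadjusted p under 0.05 and were higher in high-iron pigs, against 4.78% of all genes tested. These 5 were correlated across libraries, and the list was chosen with earlier results of these data known. Counts of members set against all genes are therefore a description and no test. The same 5 had no overlap between the groups, higher in high-iron, against 9.14% of all genes, and 8 of 9 had a log2 fold change above 0, against 65.0%, although MARCO, at 0.00, fell to -0.11 and -0.14 with median-of-ratios scaling and quantile normalization. The median log2 fold change of the members was 0.49, between the median of 0.10 and the 0.9 quantile of 0.56 over all genes. It lay 0.39 above the median of all genes, as it did with median-of-ratios scaling, and 0.49 above with quantile normalization. Both scalings moved the median of all genes to -0.01. Without high-iron replicate 2 the members' median was only 0.18 above, as it fell to 0.34 while that of all genes rose to 0.17. The excess was 0.29 with array quality weights, 0.30 without control replicate 5 and 0.50 without control replicate 6. No member had an adjusted p under 0.05 by limma with Benjamini-Hochberg adjustment, and 1 of all genes did.

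Between high-iron and low-iron, 2 of 9 members (VSIG4 and CSF1R) had an unadjusted limma p under 0.05, against 4.03% of all genes higher in high-iron at that level. The count was 1 (VSIG4) without low-iron replicate 2 or 7 or high-iron replicate 2 or 8, and 4, with C1QA and CD68 added, without control replicate 5, on rescaling to TPM and with quantile normalization. VSIG4, C1QA, C1QB, CSF1R and CD68 did not overlap between these groups, 5 of 9 against 8.11%. The log2 fold change was above 0 for 8 of 9 members, against 53.6% of all genes, with a median of 0.39 against 0.03. The comparison with control and the comparison with low-iron share the 3 high-iron libraries, so the second is not independent of the first. Between low-iron and control, 0 of 9 members had an unadjusted p under 0.05, against 3.68% of all genes in either direction, and 0 of 9 were without overlap, against 8.34%. Here 6 of 9 members had a log2 fold change above 0, against 62.7% of all genes, and the median was 0.07 against 0.08. The intervals of this comparison ran from -0.49 to 0.27 for CD5L, -0.28 to 0.42 for VSIG4 and -0.24 to 0.53 for CSF1R. The log2 fold changes of VSIG4 (0.61) and CSF1R (0.59) between high-iron and control lay above the upper bounds of these intervals. Their own intervals, 0.26 to 0.96 and 0.21 to 0.98, reached below those bounds, and both comparisons share the control libraries. This is therefore no test of a difference between the high-iron and low-iron groups.

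**Figure D2:**
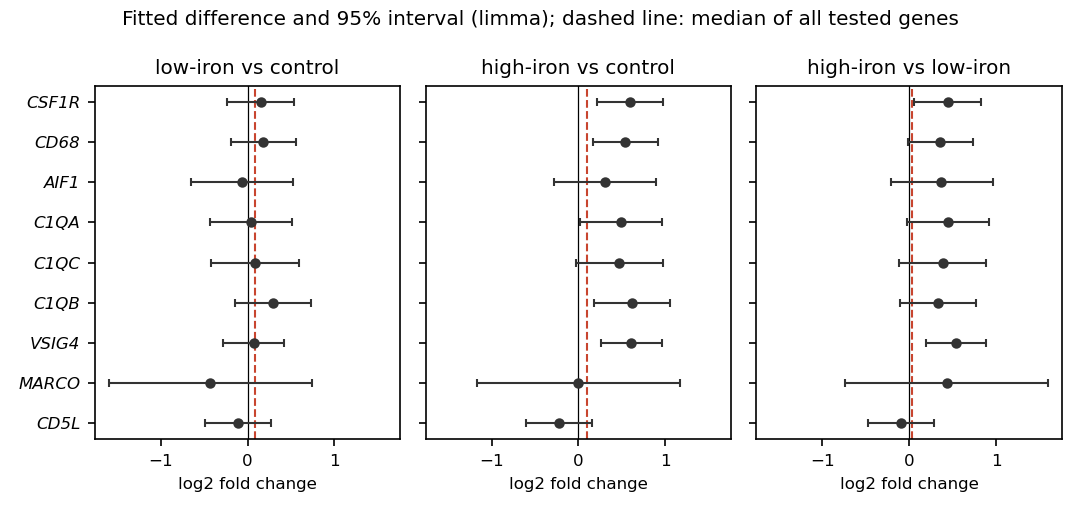
Log2 fold change of each marker gene (points) with its 95% interval from limma (horizontal lines) in the 3 comparisons; the dashed line is the median of all 12584 genes tested (0.08, 0.10 and 0.03). In the middle panel the intervals of CSF1R, CD68, C1QA, C1QB and VSIG4 lie above 0, and in the left panel all 9 intervals include 0.

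For single genes, an exact permutation test over the 20 splits of 3 against 3 libraries cannot give a two-sided p below 0.1, and that value was reached by VSIG4, C1QA, C1QB, CSF1R and CD68 in both comparisons with high-iron pigs. Over the 3 groups at once, permuting the F statistic through every possible allocation of libraries gave an exact p of 0.0107 for CSF1R, 0.0143 for CD68, 0.0179 for C1QB, 0.025 for VSIG4 and 0.0821 for C1QA. The exact p was 0.154 for CD5L, 0.2 for C1QC, 0.514 for AIF1 and 0.732 for MARCO. These 9 p-values were not adjusted.

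Ratios between members set the levels given above against each other. The ratio of CD5L to CSF1R, in FPKM, was 10.8, 9.22 and 11.03 in low-iron, 13.2, 12.5 and 11.6 in control and 6.72, 8.96 and 5.81 in high-iron libraries. The 3 groups did not overlap in this ratio, and the low-iron and high-iron groups were both below control. CD5L made up 30.6% to 36.9% of the summed FPKM of the 9 genes in control, 28.5% to 32.5% in low-iron and 20.9% to 26.4% in high-iron libraries. Of the 36 ratios between pairs of members, 6 did not overlap between high-iron and control, and all 6 were CD5L over another gene (VSIG4, C1QA, C1QB, C1QC, CSF1R and CD68). The same 6 did not overlap between high-iron and low-iron. VSIG4, C1QA, C1QB, CSF1R and CD68 were by themselves above all control and low-iron libraries. Their ratios are therefore not independent of those levels, and no share over all pairs of genes was computed. No ratio without CD5L was free of overlap in either of these comparisons, as with the summed C1q chains over CSF1R, at 19.4 to 20.3 in low-iron, 17.8 to 22.9 in control and 14.4 to 22.2 in high-iron libraries. The ratios are given as a description with no test.

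**Figure D3:**
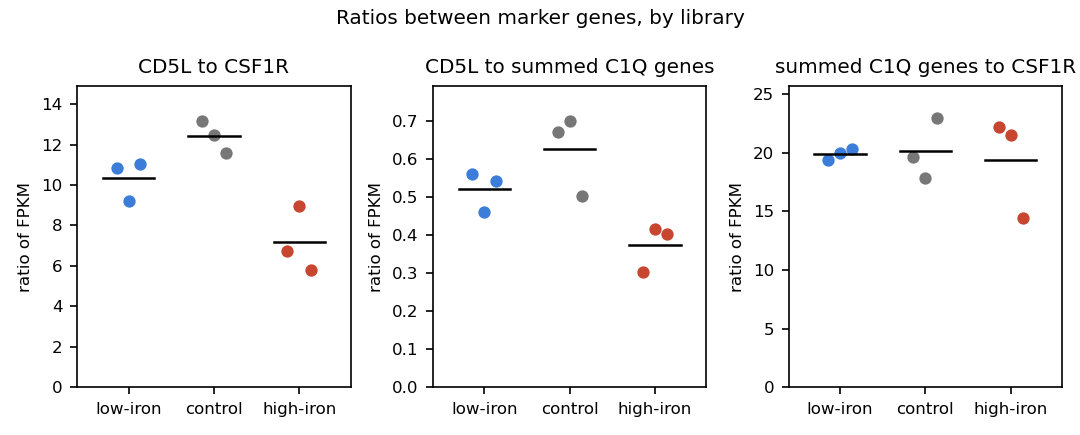
Ratios of FPKM in each library (points) with the group mean (bar), from 0. The ratio of CD5L to CSF1R lies at 5.81 to 8.96 in high-iron and at 11.6 to 13.2 in control libraries, CD5L to the summed C1q genes at 0.303 to 0.416 against 0.504 to 0.700, while the summed C1q genes to CSF1R overlap.

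Across the 9 libraries, the levels of 6 members were correlated. All 15 pairs among C1QA, C1QB, C1QC, CSF1R, CD68 and VSIG4 had a positive Pearson r, from 0.66 to 0.92, on log2(FPKM + 0.1). On deviations from the group means the same pairs ran from -0.20 to 0.93 with a median of 0.54, and the lowest values were those of VSIG4, with 0.19, 0.10, 0.07, -0.04 and -0.20 for C1QA, C1QC, CSF1R, C1QB and CD68. Of the 36 pairs computed, 11 had an exact permutation p under 0.05 after Benjamini-Hochberg adjustment, and all 11 were among these 6 genes. C1QB and C1QC had r = 0.92 and rho = 0.93 (exact p = 0.000471 and 0.00075, adjusted 0.00804 and 0.0135), and r was 0.79 without the 2 libraries farthest from the median and 0.93 on deviations from the group means. For VSIG4 and CSF1R, r was 0.84 and rho 0.83 (exact p = 0.00554 and 0.00827, adjusted 0.0319 and 0.0372), and r was 0.88 without the 2 farthest libraries but 0.07 on deviations from the group means. The C1q chains therefore varied together also among pigs on the same diet, whereas r between VSIG4 and the other 5 genes was only -0.20 to 0.19 there. The SD of VSIG4 was 11.3%, 5.55% and 4.25% of its mean in low-iron, control and high-iron pigs. With so narrow a range and no p computed within groups, a low r cannot show that a relation is absent. For CSF1R and CD68, r was 0.92 and rho 0.85 (exact p = 0.000342 and 0.00607, adjusted 0.00804 and 0.0364), with r of 0.89 without the 2 farthest libraries and 0.66 within groups.

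Pairs with CD5L ran from r = -0.61 to -0.20 and pairs with MARCO from -0.53 to 0.06, none with an adjusted exact permutation p under 0.05. On deviations from the group means the pairs with CD5L ran from -0.44 to 0.46 with a median of 0.20, so that the negative sign was mostly lost within groups, and those with MARCO ran from -0.86 to -0.02 with a median of -0.38. The mean of the 9 standardised log2 levels was -1.03 in control replicate 5, the lowest, and 0.93, 0.52 and 0.69 in high-iron replicates 2, 7 and 8. The genes outside the list whose levels ran closest to this mean over the 9 libraries, by Pearson r and as a description, were ATN1 and DEK (0.98), the leukocyte surface receptor CD84 (0.97), RIN2 (0.96), RIT1 and CFP (0.95), ARHGAP25 (0.94) and SP140 (0.93). CFP, which encodes the complement protein properdin made by leukocytes, averaged 21.6 FPKM in high-iron and 13.5 FPKM in control pigs.

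Of 17 tested genes of resident macrophages outside the list, 15 had a log2 fold change above 0 between high-iron and control, against 65.0% of all genes, and the median was 0.38. An unadjusted limma p under 0.05 was found for 5, all higher, against 4.78% of all genes, and none had an adjusted p under 0.05. CLEC4F, whose protein is a lectin of Kupffer cells, passed the fold and p thresholds: it was at 23.1, 21.2 and 13.2 FPKM in low-iron, 9.69, 28.2 and 9.95 FPKM in control and 31.7, 29.9 and 48.0 FPKM in high-iron libraries. Control replicate 5 was far above the other 2 controls, but still below each high-iron library. The log2 fold change was 1.35 (SE 0.40, limma adjusted p = 0.885), and it stayed between 1.09 and 1.85, with the call kept, in all 20 alternatives. The others under an unadjusted p of 0.05 were CD163 (0.57), the macrophage marker ADGRE1 (0.76), the receptor kinase AXL (0.61) and the iron exporter SLC40A1 (0.41). FOLR2, a folate receptor and the most abundant of the list, was at -0.23 (SE 0.25). LILRB5 and CETP were not matched by symbol, and SPIC was under the minimum level.

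Growth factors and transcription factors of macrophages were examined next. Of 12 tested genes of this kind, 9 had a log2 fold change above 0 between high-iron and control, against 65.0% of all genes. Their median was 0.28. MITF alone had an unadjusted limma p under 0.05 (0.63, SE 0.24), against 4.78% of all genes higher in high-iron at that level. CSF1, the ligand of CSF1R, was at 9.44, 11.7 and 13.1 FPKM in low-iron, 5.52, 8.29 and 7.61 FPKM in control and 8.68, 4.996 and 7.58 FPKM in high-iron libraries. It was therefore highest in low-iron pigs, all 3 above each of the other 6 libraries, with a log2 fold change of 0.67 against control and of -0.70 between high-iron and low-iron, each with an unadjusted p under 0.05 and below the 2-fold threshold. IL34, the other ligand, and CSF2 were under the minimum level. SPI1, which encodes PU.1, had a log2 fold change of 0.25 (SE 0.27).

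Among 21 lysosome and phagocytosis genes, 18 had a log2 fold change above 0 between high-iron and control, against 65.0% of all genes, with a median of 0.19. GPNMB, a membrane protein of lysosome-rich macrophages, passed both thresholds, with 16.2, 17.6 and 20.6 FPKM in control and 28.0, 38.1 and 45.5 FPKM in high-iron libraries (log2 fold change 1.01, SE 0.28, limma adjusted p = 0.885). That call sat at the fold threshold and was kept in 12 of 20 alternatives. It was lost with a pseudocount of 1 (0.98), with median-of-ratios scaling (0.90), with quantile normalization (0.98) and with the animal number as a block (0.98), and without control replicate 4 (0.93), control replicate 5 (just under 1.00), high-iron replicate 7 (0.98) or high-iron replicate 8 (0.85). The protease CTSS had 0.48 (SE 0.18) and GRN, a secreted regulator of lysosomes, 0.46 (SE 0.18), both with an unadjusted p under 0.05, while the abundant proteases CTSB and LGMN were at -0.19 and 0.11.

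For iron recycling, 9 of 14 tested genes had a log2 fold change above 0 between high-iron and control, near the 65.0% of all genes. The median was 0.11, also near that of all genes. SLC40A1 (ferroportin) was at 160, 172 and 127 FPKM in control and 207.5, 187 and 209.8 FPKM in high-iron libraries (log2 fold change 0.41, SE 0.18, unadjusted limma p under 0.05). HMOX1, the haem-degrading oxygenase, was higher in low-iron than in control pigs by 0.65 (SE 0.29, unadjusted p under 0.05), and in high-iron pigs the log2 fold change was 0.26 (SE 0.29). The most abundant of the list were HP and HPX, which encode the plasma carriers of free haemoglobin and haem, at -0.18 and 0.09, and the ferritin light chain FTL was at -0.34. TFRC, the transferrin receptor, which hepatocytes also express, passed both thresholds in all 3 comparisons (2.86, 1.27 and -1.59).

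Several lists of markers of other cell types were examined in the same way, and values below are log2 fold changes between high-iron and control unless stated. For the counts in this paragraph and the next, 65.0% of all genes were above 0 in that comparison. An unadjusted limma p under 0.05 and a higher level in high-iron pigs were found for 4.78% of all genes. All 12 pan-leukocyte genes were above 0, with a median of 0.56, and 8 had an unadjusted limma p under 0.05, among them LAPTM5 (0.64), the integrin chain ITGB2 (0.69) and PTPRC, the leukocyte common antigen CD45 (0.64). Their summed level was 153 to 163 FPKM in low-iron, 138 to 169.8 FPKM in control and 218 to 264 FPKM in high-iron libraries. Kupffer cells express many of these genes, so the list does not separate them from other leukocytes. Of 10 tested monocyte and neutrophil genes, 8 were above 0, with a median of 0.47 and sums of 323 to 385, 262 to 320.3 and 249.8 to 352 FPKM in the same order of groups. Of these, 3 had an unadjusted limma p under 0.05, all higher: CX3CR1, the fractalkine receptor (0.64, without overlap between the groups), CCR2 and LYZ, whose values follow. CD14, the most abundant of the list, was at -0.07, and the defining genes S100A8, MPO and VCAN were at or below 1.85, 0.224 and 0.909 FPKM in every library.

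The median was 0.48 for class II antigen presentation genes (10 of 10 above 0, summed at 221 to 308, 229 to 348 and 320.3 to 577 FPKM) and 0.63 for T and NK cell genes (11 of 12, 27.1 to 35.8, 28.5 to 39.4 and 39.3 to 69.2 FPKM). It was 0.11 for B and plasma cell genes (4 of 7, 9.91 to 18.3, 14.8 to 29.3 and 18.4 to 35.8 FPKM) and 0.42 for sinusoidal endothelial genes (14 of 15, 374 to 454, 342 to 396 and 364.5 to 530.4 FPKM), of which CLEC1B was listed at 0 in all 9 libraries. For stellate cell and fibroblast genes the median was 0.40 (12 of 13, 167 to 414, 154 to 295 and 272 to 388 FPKM), for bile duct genes 0.59 (5 of 6, 14.6 to 36.5, 11.7 to 34.0 and 28.4 to 44.2 FPKM) and for the 3 tested erythroid genes -0.13 (0 of 3, 478 to 2455, 212 to 1452 and 351 to 841 FPKM). Of 13 hepatocyte rows 4 were above 0, with a median of -0.10 and sums of 73450 to 84290, 77570 to 96860 and 71750 to 86810 FPKM. CPS1, a urea cycle enzyme, had -0.88 and the tyrosine-degrading TAT -0.91, both with an unadjusted limma p under 0.05. These were 2 of the 13 hepatocyte rows, against 0.811% of all genes lower in high-iron at that level. The median of all genes was 0.10. Above it were the medians of the leukocyte, endothelial, stellate cell and bile duct lists, as was that of the Kupffer cell genes. B and plasma cell genes, at 0.11, were barely above it. An unadjusted limma p under 0.05, higher in high-iron, was found for 5 of 15 endothelial, 3 of 12 T and NK cell and 3 of 13 stellate cell genes. It was found for 1 of 10 class II genes and for 0 of the bile duct and of the B and plasma cell genes. The part of these lists in the result was not tested.

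In these lists, VWF of endothelium (1.68) and COL1A1 of stellate cells (1.53, and 1.51 against low-iron) passed both thresholds and did so in all 20 alternatives. So did TFRC of the iron recycling list between low-iron and control (2.86, and 2.40 to 3.49 in the alternatives). The monocyte receptor CCR2 (1.01, and 1.26 against low-iron) and 1 of 2 rows named GZMA (1.48) also passed. Without control replicate 5, high-iron replicate 7 or high-iron replicate 8, the first value of CCR2 was 0.87, 0.92 or 0.94, under the fold threshold. A pseudocount of 1 also ended both calls of CCR2 (0.69 and 0.84) and that of GZMA (0.62), and median-of-ratios scaling and quantile normalization ended the first call of CCR2 (0.91 and 0.83). The remaining calls each depended on at least 1 library: CD37 (1.00), CD8A (1.01), LYZ (3.13), RGS5 (1.16) and TFRC (1.27) between high-iron and control, CD8A (1.03), COL1A2 (1.05), JCHAIN (1.15), SLA-DOA (1.03), SPP1 (1.02) and TFRC (-1.59) between high-iron and low-iron, and S100A12 (3.03) and the same row of GZMA (1.16) between low-iron and control. Between high-iron and control, the call of RGS5 was lost without control replicate 6 (0.64), that of CD37 without control replicate 5 (0.99) or high-iron replicates 7 (0.95) or 8 (0.86), and that of CD8A without control replicate 6 (0.69) or high-iron replicate 8 (0.68). LYZ lost it without control replicates 4 (2.45) or 5 (2.45) or high-iron replicates 2 (2.49) or 8 (2.50), and TFRC without low-iron replicate 2 (1.27), control replicates 4 (1.01) or 6 (1.11) or high-iron replicates 2 (0.86) or 8 (1.42). Between high-iron and low-iron, CD8A lost it when either low-iron replicate 3 (0.95) or high-iron replicate 8 (0.70) was left out, as did JCHAIN (0.75 and 0.94), and COL1A2 without low-iron replicates 2 (0.77) or 7 (0.96) or high-iron replicates 2 (0.95) or 8 (0.85). TFRC lost it without low-iron replicates 2 (-1.41) or 3 (-1.13) or high-iron replicates 7 (-1.33) or 8 (-1.44). SPP1 lost it without any 1 of 6 libraries, low-iron replicates 2 and 7, control replicates 4 and 6 and high-iron replicates 2 and 7 (0.63 to 1.02), and SLA-DOA without low-iron replicates 2, 3 and 7, control replicate 6 or high-iron replicates 7 and 8, each left out alone (0.67 to 1.14). Between low-iron and control, S100A12 lost it without low-iron replicates 3 (2.50) or 7 (2.79) or control replicates 5 (2.53) or 6 (2.53), and GZMA without low-iron replicates 3 (1.14) or 7 (1.11) or control replicate 5 (0.84). Other pseudocounts, filters, scalings, weights or covariates also ended calls of CD37, CD8A, LYZ, RGS5, TFRC, COL1A2, SLA-DOA, SPP1, S100A12 and GZMA. LYZ and S100A12 were each listed at 0 in 2 control libraries. ITGAX, CYBB, C4B, KRT7 and HBA were not matched by symbol, class II genes have near-identical copies between which reads may be split, and the other listed genes without a fold change were under the minimum level.

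**Figure D4:**
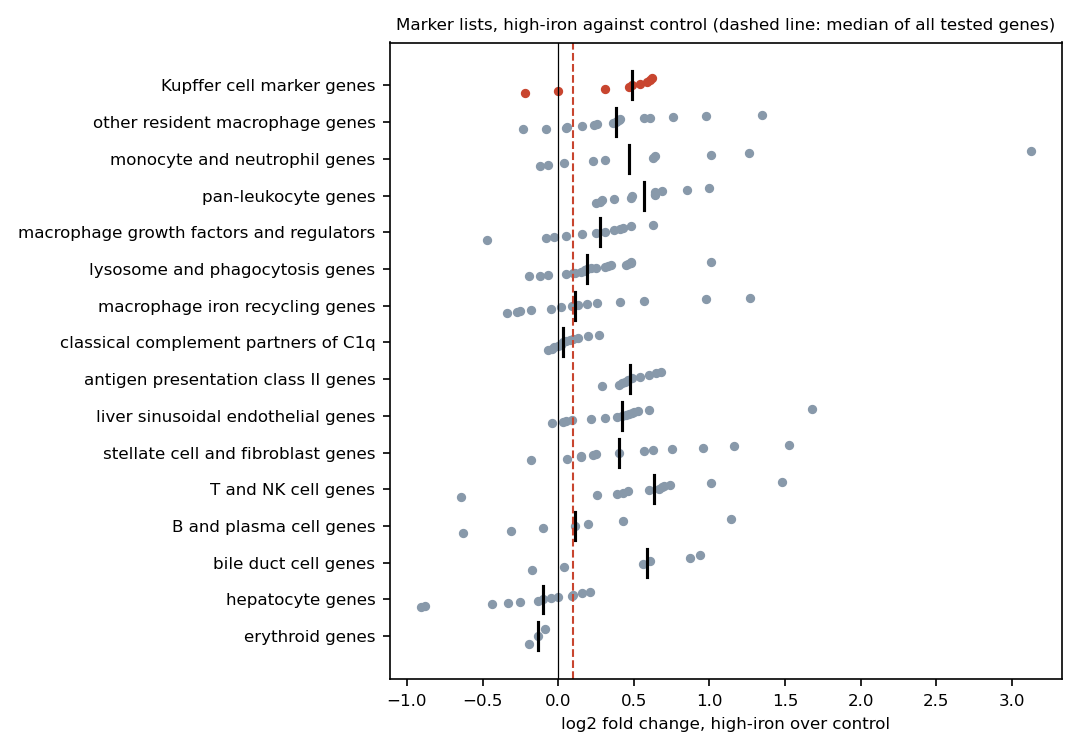
Log2 fold change between high-iron and control pigs (horizontal axis) for each tested gene (points) of the 9 Kupffer cell markers (red) and 15 other lists (grey), with a bar at each list's median; the dashed line is the median of all genes, 0.10. The median is 0.49 for the Kupffer cell markers, 0.56 for pan-leukocyte genes, 0.63 for T and NK cell genes, 0.03 for complement partners of C1q and -0.10 for hepatocyte genes.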

How the data were processed

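The authors sequenced liver RNA with a NEBNext Ultra kit, aligned the cleaned reads to Sscrofa11.1 (HISAT2), assembled transcripts (StringTie) and deposited FPKM for 25918 genes in 9 libraries. No read counts were used here. The 20660 numbered rows were named by their place in the NCBI annotation of that build, which put all 20660 on protein-coding genes, against 15031 when shifted by 1, and 5258 rows were new genes without a name. All 9 columns matched a sample, and the number of columns left unused was 0.

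Libraries were grouped by the pig numbers of the series description. Log2(FPKM + 0.1) of the 12584 genes with a mean of at least 0.5 was fitted with limma 3.58.1 (R 4.3.3, trended moderation, 6 residual degrees of freedom) over all 9 libraries. The study screened counts with DESeq2, which FPKM do not allow. A gene was called at a fold change of at least 2 with an unadjusted p under 0.05, the study's thresholds, and Benjamini-Hochberg adjusted p are given beside it. Fold changes on this scale understate the change of low genes. Exact permutation tests and correlations used scipy 1.17.1 and numpy 2.4.6. The fit was tested on simulated data. Named genes were the 9 members, the genes of 15 other lists called in any comparison with their most abundant members, other genes of those lists with a p under 0.05 or of known role (chosen after their values were seen), the 8 genes most like the members' mean, and ALB, APOA1 and TTR. The members and lists were chosen with earlier results of these data known. A gene of these lists is not reported here. Alternatives were other pseudocounts (1 and 0.01), filters, scalings, weights, samples, a replicate block, leaving out each library, and EIF1AY as a covariate, added after the data were seen.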

Additional observations from a re-analysis of the deposited data

How the results depend on the processing

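In none of the 20 alternatives was a member called. VSIG4, CSF1R, CD68 and C1QB kept an unadjusted limma p under 0.05 between high-iron and control in 20 of 20 alternatives, and C1QA in 11. C1QC, above 0.05 at first, came under it in 2, and between high-iron and low-iron VSIG4 kept it in 20 and CSF1R in 16. CSF1R lost it without low-iron replicate 2 (0.46), low-iron replicate 7 (0.36), high-iron replicate 2 (0.44) or high-iron replicate 8 (0.35). The members' median between high-iron and control (0.49) was 0.37 with median-of-ratios scaling, 0.38 with array quality weights and 0.34 to 0.59 on leaving out 1 library, and that between low-iron and control ranged from -0.06 to 0.17 on leaving out 1 library. The number of genes called was 197 between high-iron and control, 194 between high-iron and low-iron and 111 between low-iron and control. It was 74, 67 and 34 with a pseudocount of 1, 504, 458 and 331 without a filter on low FPKM, and 334 and 171 with array quality weights in the last 2. On leaving out 1 library it ranged from 190 to 296 (without control replicate 4), from 186 to 333 (without low-iron replicate 3) and from 111 to 209 (without control replicate 5, and 186 and 171 without low-iron replicate 2 and control replicate 6).

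Scaling moved the split of calls: 160 higher and 37 lower between high-iron and control became 98 and 52 with median-of-ratios and 82 and 59 with quantile normalization, as the median of all genes moved from 0.10 to -0.01. The splits were 75 and 36 (53 and 48, 52 and 58) between low-iron and control and 127 and 67 (110 and 75, 91 and 92) between high-iron and low-iron. Log2 fold changes near 0 changed sign: between low-iron and control, C1QA was -0.04 and -0.02 and VSIG4 -0.01 and -0.02 with those scalings, and on leaving out 1 library C1QA ranged from -0.10 to 0.17, C1QC from -0.07 to 0.27 and AIF1 from -0.36 to 0.10. MARCO between high-iron and control was 0.00 with a pseudocount of 1, -0.11 and -0.14 with those scalings, -0.13 with EIF1AY as a covariate and -0.49 to 0.40 on leaving out 1 library, and between high-iron and low-iron -0.06 to 0.83. Calls of other genes between high-iron and control were lost with median-of-ratios scaling and quantile normalization for CD37 (0.89 and 0.85), CD8A (0.89 and 0.89) and TFRC (1.16 and 1.24), with a pseudocount of 1 for these 3 (0.76, 0.81 and 1.19), with array quality weights for RGS5 (0.98) and with EIF1AY as a covariate for CD8A (0.93), LYZ (2.73) and TFRC (0.89).

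Low-iron and high-iron libraries share the numbers 2 and 7. The labels do not say what the number means. Deviations of same-numbered pigs from their group means had correlations of 0.02 and 0.02, and the block fit used a consensus correlation of 0.201. So few pairs cannot show whether these pigs share more than a number, which was not tested. With the number as a replicate block, MARCO between high-iron and control was -0.05, the members' medians were 0.06, 0.49 and 0.37 between low-iron and control, high-iron and control, and high-iron and low-iron, and 110, 207 and 228 genes were called. With it C1QA (0.46) and CD68 (0.37) also had an unadjusted p under 0.05 between high-iron and low-iron, 4 members in place of 2. With 3 pigs a group and no read counts, small differences in low genes such as MARCO could not be resolved.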
